A study of Mus musculus with 39 samples.

Results

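Testis RNA from 23-day-old (P23) INSL3-KI mice was compared with testis RNA from P23 INSL3-KO mice, in 6 of the 39 libraries of the series, 3 biological replicates per genotype, chosen by tissue, age and genotype alone. All mice were male. The study lists C57BL/6J as its mouse strain and names it for the INSL3-KI and WT mice, and its methods give no separate statement for INSL3-KO. INSL3-KI mice were homozygous for an allele in which minke whale (Balaenoptera acutorostrata) INSL3 cDNA took the place of the mouse coding sequence at the mouse locus, under its own regulatory elements, after a neomycin cassette had been removed by Cre. The construction of the INSL3-KO allele is not given in the sources used here. The mice were neither treated nor operated on, and every library was made from whole testis. WT testis at P23 (3 libraries) is quoted as the level without a mutant allele, and testis of both mutants at P8 (3 libraries each) was used for 1 test of age. The counts stand in 2 tables, the INSL3-KI libraries in the first and the INSL3-KO and P23 WT libraries in the second, so genotype and table cannot be told apart in this comparison.

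INSL3 is a peptide hormone of the relaxin family that Leydig cells secrete. It acts on the G protein-coupled receptor RXFP2, which raises cAMP, and it drives the growth of the gubernaculum, the ligament that pulls the testis toward the scrotum. Without it the testes stay in the abdomen at body temperature, where meiotic and postmeiotic germ cells are readily lost. At P23 the first wave of spermatogenesis in the mouse has filled the tubules with pachytene spermatocytes and the first round spermatids have appeared, so germ cell transcripts of these stages are a large part of whole-testis RNA. The comparison asks whether a testis with the whale hormone resembles one without any INSL3.

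The 6 libraries held 36344484 to 42629270 counts. Levels are given as CPM, library shares made comparable by TMM factors over 15 testis libraries (both mutants at P8 and P23, and WT at P23). INSL3-KI replicate 3 stood apart from the other two. On log CPM, INSL3-KI replicates 1 and 2 correlated at 0.983, replicate 3 correlated with them at 0.952 and 0.933 and with the INSL3-KO libraries at 0.869 to 0.871, and its level lay between those of the other two INSL3-KI libraries and those of the INSL3-KO libraries for 92.3% of the genes called below. Results are therefore also given without it. Transcripts of the mitochondrial genome took 3.15%, 2.72% and 5.19% of the counts in INSL3-KI and 13.5%, 12.7% and 13.8% in INSL3-KO, against 2.44% to 2.59% in WT, and the part of this in other results was not tested. Defining testis markers (Sertoli cell Sox9 and Amh, Leydig cell Star and Cyp11a1, spermatogonial Kit and Stra8, spermatocyte Sycp3) had reads in each of the 6. Of the lists for tissues that could be carried along, that of the epididymis epithelium summed to 20.47 to 32.96 CPM in INSL3-KI and 571 to 607 CPM in INSL3-KO. Lcn2 made up nearly all of the INSL3-KO sums but only a part of the INSL3-KI sums, and 7 of the 21 genes of the list had no read in any of the 6. In whole-testis RNA, fewer cells of a type and less RNA per cell cannot be told apart, and the part of cell composition in any result was not tested.

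The targeted gene, Insl3 (chr8:71689214-71690575 of GRCm38), had few reads in either mutant. It had 20844, 25238 and 23851 counts in the WT libraries, 52, 66 and 84 in INSL3-KI, and 0, 5 and 0 in INSL3-KO (log2 fold change 5.45, SE 0.97, edgeR adjusted p = 0.00292). Insl3 had an edgeR adjusted p of up to 0.0127 without INSL3-KI replicate 1 or INSL3-KO replicates 1 or 3. Reads assigned to mouse Insl3 were thus present in each INSL3-KI library and in 1 of 3 INSL3-KO libraries, and both groups lay far below WT. The counts measure reads that matched the mouse gene, and the whale transcript was not counted here as such. Both coding sequences are shown because they are the difference that the knock-in makes. The first 300 bases are printed of the study's sequences for the 369-base mouse and 402-base minke whale coding regions, 5′ to 3′. Capitals mark bases that differ or have no partner in a global alignment of the whole regions, in which 267 of 369 aligned bases (72.4%) were identical. The longest exact run they share anywhere is 12 bases.
Mouse Insl3: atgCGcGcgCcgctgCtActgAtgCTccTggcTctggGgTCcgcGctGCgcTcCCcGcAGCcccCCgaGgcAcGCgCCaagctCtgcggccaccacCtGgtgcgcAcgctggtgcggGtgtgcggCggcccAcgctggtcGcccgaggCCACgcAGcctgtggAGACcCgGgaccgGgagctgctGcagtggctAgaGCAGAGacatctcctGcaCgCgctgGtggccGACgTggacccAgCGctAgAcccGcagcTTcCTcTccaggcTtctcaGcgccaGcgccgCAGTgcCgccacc
Minke whale INSL3: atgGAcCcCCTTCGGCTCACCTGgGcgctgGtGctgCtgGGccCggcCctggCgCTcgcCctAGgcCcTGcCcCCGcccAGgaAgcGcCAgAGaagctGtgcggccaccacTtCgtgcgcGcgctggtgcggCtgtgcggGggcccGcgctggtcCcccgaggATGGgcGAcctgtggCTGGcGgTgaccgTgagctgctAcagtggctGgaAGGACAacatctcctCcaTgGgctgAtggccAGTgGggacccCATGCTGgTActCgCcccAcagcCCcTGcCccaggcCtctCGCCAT
The receptor gene Rxfp2 (chr5:150018675-150082184) reached 4.78, 7.37 and 2.03 CPM in INSL3-KI and 0.0818, 0.259 and 0.198 CPM in INSL3-KO (log2 fold change 4.68, SE 0.66, edgeR adjusted p = 0.00119), with a WT mean of 23.9 CPM. Its groups did not overlap, but its transcript length implied by counts and FPKM differed between the tables.

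Transcripts of meiotic and postmeiotic germ cells were higher in INSL3-KI, and those of Sertoli cells, Leydig cells and macrophages were higher in INSL3-KO, on the scale of library shares. Of 16379 genes tested, 4131 (25.2%) were called higher and 2131 (13.0%) lower in INSL3-KI by edgeR, where a call needed both an adjusted p-value below 0.01 and at least a 2-fold difference. The groups did not overlap, with every INSL3-KI library above or every one below every INSL3-KO library, for 6577 (40.2%) and 5854 (35.7%) genes. Without INSL3-KI replicate 3, 4902 (29.0%) and 3599 (21.3%) of 16904 genes were called. Without any 1 of the other 5 libraries, 2923 to 3439 genes were called higher and 723 to 1278 lower. CPM values are shares of a library, so a large class of transcripts that is present in one group lowers all others there. With the libraries scaled to an equal level of the Sertoli cell list, chosen after seeing the data, 7782 genes (47.5%) were called higher and 135 (0.824%) lower in INSL3-KI, and the median over all genes moved from 0.02 to 1.43 on the log2 scale. The higher share of the calls was 66.0% with TMM and 54.9% with limma on log2(FPKM + 0.1), which called 3397 higher and 2794 lower. Directions below hold for TMM scaling, and values scaled on the Sertoli cell list are given beside those of genes that were lower.

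**Figure D1:**
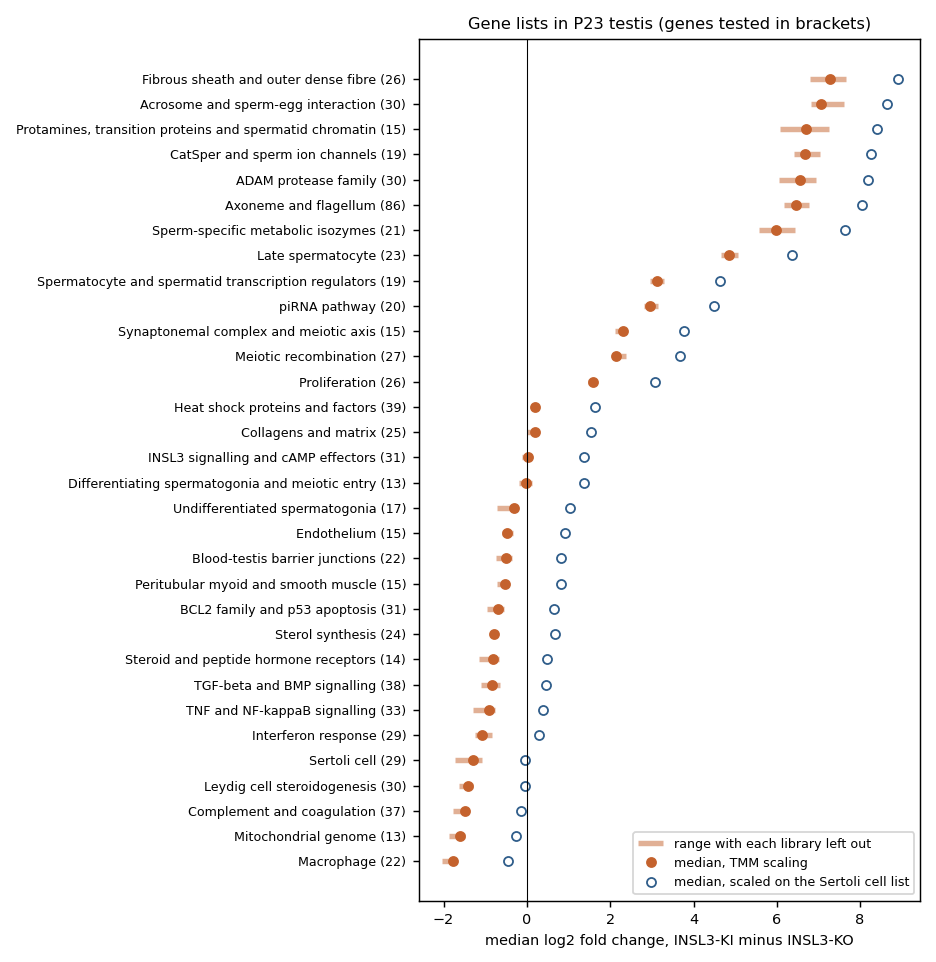
Median log2 fold change, INSL3-KI minus INSL3-KO, of the testis and pathway gene lists in P23 testis (x axis, log2 units, list names with the number of genes tested on the y axis). Filled circles are TMM-scaled medians, bars the range of the median with each library left out in turn, and open circles the medians with the libraries scaled on the Sertoli cell list. Lists for other tissues, for lymphocytes, neutrophils and mast cells and for the Insl3 neighbours are not drawn. Among the lists drawn, the sperm structure lists sit furthest to the right, up to 7.27, and the macrophage list furthest to the left at -1.78.

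Spermatogonial genes were called at shares near or below those of all genes tested (25.2% higher and 13.0% lower). The shares were 5.88% higher and 5.88% lower for undifferentiated spermatogonia. They were 23.1% and 7.69% for differentiating spermatogonia and meiotic entry. Among genes of undifferentiated spermatogonia, the stem and progenitor cells, the list had 1 of 17 tested genes higher and 1 lower in INSL3-KI, with a median log2 fold change of -0.31 (1.03 when scaled on the Sertoli cell list). Without INSL3-KI replicate 3 the median was -0.71, with 1 called higher and 4 lower. The list summed to 301, 287 and 379 CPM in INSL3-KI and 339, 334 and 338 CPM in INSL3-KO, beside 212 to 220.4 CPM in WT. Id4, a marker of stem cells, had 78.5, 77.8 and 53.1 CPM in INSL3-KI and 25.2, 25.99 and 27.9 CPM in INSL3-KO (log2 fold change 1.41, SE 0.18, edgeR adjusted p = 0.00091), but its implied transcript length differed between the tables and its log2 fold change was 0.01 with limma on log2(FPKM + 1). Lin28a, an RNA-binding protein of progenitors, had 15.96, 15.04 and 28.8 CPM in INSL3-KI and 39.02, 37.95 and 33.4 CPM in INSL3-KO (log2 fold change -0.89, or 0.41 when scaled on the Sertoli cell list) and did not pass the test. The list of differentiating spermatogonia and meiotic entry had 3 of 13 tested genes higher and 1 lower in INSL3-KI, and its median was -0.01, or 1.36 when scaled on the Sertoli cell list. It summed to 1505, 1454 and 1098 CPM in INSL3-KI and 730.1, 768 and 765 CPM in INSL3-KO, beside 1724 to 1761 CPM in WT, and on this sum every INSL3-KI library lay above every INSL3-KO library. Stra8, the retinoic acid target that opens meiosis, had 35.4, 36.1 and 28.7 CPM in INSL3-KI and 41.8, 38.8 and 42.4 CPM in INSL3-KO and did not pass. Meioc, which keeps germ cells in meiotic prophase, had 322, 305 and 174 CPM in INSL3-KI and 17.1, 18.3 and 18.4 CPM in INSL3-KO (log2 fold change 3.90, SE 0.27, edgeR adjusted p = 0.000156), with no overlap of the groups. Dmrtb1 and Ythdc2 were also called higher (log2 fold change 4.63 and 1.64), each with a different implied length in the tables.

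Genes of meiotic prophase were higher in INSL3-KI. Synaptonemal complex and meiotic axis genes, which hold homologous chromosomes together, had 11 of 15 tested genes higher and 0 lower in INSL3-KI (11 higher and 0 lower without INSL3-KI replicate 3), with a median log2 fold change of 2.32. The list summed to 2679, 2758 and 1846 CPM in INSL3-KI and 482, 462 and 490.2 CPM in INSL3-KO, beside 3531 to 3709 CPM in WT, so INSL3-KI replicate 3 was the lowest of its group and still above every INSL3-KO library. Syce1, a central element protein, had 369, 384 and 181 CPM in INSL3-KI and 13.9, 12.4 and 13.2 CPM in INSL3-KO (log2 fold change 4.57, SE 0.33, edgeR adjusted p = 0.000159). Stag3, the meiotic cohesin subunit, had 690.2, 736 and 344 CPM in INSL3-KI and 37.7, 39.6 and 38.7 CPM in INSL3-KO (log2 fold change 3.93, SE 0.32, edgeR adjusted p = 0.000185). Sycp2, an axial element protein, had 415, 445 and 274 CPM in INSL3-KI and 34.1, 25.5 and 34.9 CPM in INSL3-KO (log2 fold change 3.59, SE 0.25, edgeR adjusted p = 0.000156). The groups did not overlap for Syce1, Stag3 or Sycp2. Rec8, the meiotic kleisin, had 38.4, 46.2 and 41.8 CPM in INSL3-KI and 42.8, 42.4 and 40.6 CPM in INSL3-KO (log2 fold change 0.01, or -0.20 with library size as the only scaling, SE 0.12) against a WT mean of 99.5 CPM. It did not pass the test, nor did Syce2, 4930447C04Rik and Smc3, which are named after their values were seen.

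Recombination genes had 21 of 27 tested genes higher and 0 lower in INSL3-KI (21 higher and 0 lower without INSL3-KI replicate 3), with a median log2 fold change of 2.14. Cntd1, which marks crossover sites, had 157, 161 and 88.4 CPM in INSL3-KI and 2.40, 1.08 and 2.003 CPM in INSL3-KO (log2 fold change 6.22, SE 0.41, edgeR adjusted p = 0.000156), and its groups did not overlap. Spo11, the enzyme that makes the double-strand breaks, had 43.7, 48.3 and 25.7 CPM in INSL3-KI and 1.06, 2.45 and 1.21 CPM in INSL3-KO (log2 fold change 4.63, SE 0.43, edgeR adjusted p = 0.000292), with a different implied length in the tables. Proliferation genes, which meiotic cells share, had 14 of 26 tested genes higher and 0 lower in INSL3-KI, with a median log2 fold change of 1.58. Aurka, a spindle kinase, had 244, 248 and 115 CPM in INSL3-KI and 17.3, 16.4 and 14.9 CPM in INSL3-KO (log2 fold change 3.64, SE 0.33, edgeR adjusted p = 0.000252).

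**Figure D2:**
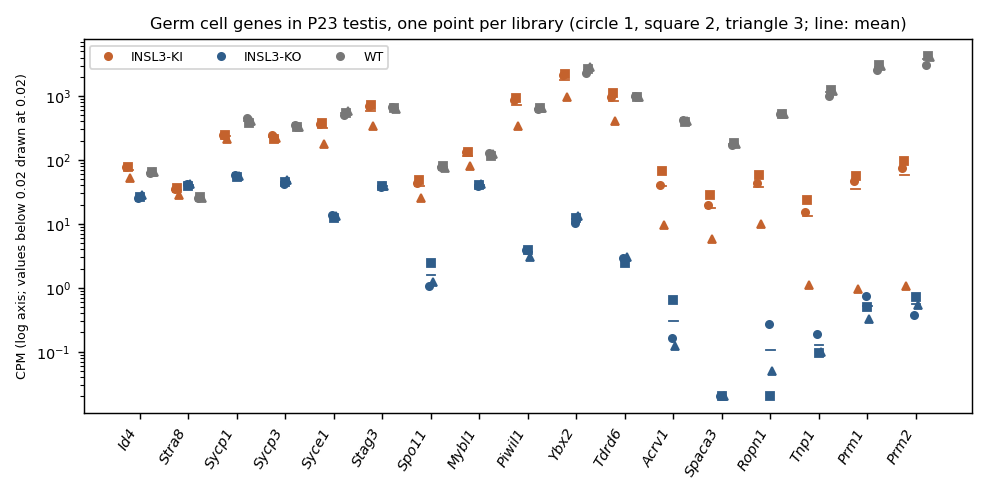
Level of germ cell genes in P23 testis (y axis, CPM on a log axis, values under 0.02 drawn at 0.02), 1 point per library and a line at each group mean, for INSL3-KI, INSL3-KO and WT. Spermatogonial genes lie on the left and spermatid genes on the right. From Syce1 onward every INSL3-KI library lies above every INSL3-KO library, and INSL3-KI replicate 3 (triangle) is the lowest INSL3-KI library for Tnp1, Prm1 and Prm2.

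Late spermatocyte genes separated the genotypes more widely than those of early prophase, by their medians. The late spermatocyte list had 21 of 23 tested genes higher and 0 lower in INSL3-KI (22 higher and 0 lower without INSL3-KI replicate 3), with a median log2 fold change of 4.84. It summed to 14280, 14850 and 6701 CPM in INSL3-KI and 451, 429 and 441 CPM in INSL3-KO, beside 21100 to 21730 CPM in WT. Piwil1, the Argonaute-family protein of pachytene piRNAs, had 883, 933 and 338 CPM in INSL3-KI and 3.84, 3.93 and 3.04 CPM in INSL3-KO (log2 fold change 7.64, SE 0.50, edgeR adjusted p = 0.000156) and a WT mean of 638 CPM. Ybx2, which binds and stores germ cell mRNA, had 2113, 2210 and 954 CPM in INSL3-KI and 10.5, 12.4 and 13.4 CPM in INSL3-KO (log2 fold change 7.19, SE 0.42, edgeR adjusted p = 0.000156). Neither gene overlapped between the groups. The 2 members that did not pass were Cdc25c and Hist1h1t, named after their values were seen. The piRNA pathway, which silences transposons and processes pachytene transcripts, had 18 of 20 tested genes higher and 0 lower in INSL3-KI, with a median log2 fold change of 2.97. Tdrd6, a scaffold of the chromatoid body, had 962, 1118 and 400.3 CPM in INSL3-KI and 2.92, 2.40 and 3.02 CPM in INSL3-KO (log2 fold change 8.22, SE 0.50, edgeR adjusted p = 0.000156), and Tdrd12 had a log2 fold change of 4.24. The implied length of both differed between the tables. Transcription regulators of spermatocytes and spermatids had 14 of 19 tested genes higher and 0 lower in INSL3-KI, with a median log2 fold change of 3.12. Rfx4, a regulatory factor X protein, had 69.1, 88.2 and 26.4 CPM in INSL3-KI and 0.382, 0 and 0.470 CPM in INSL3-KO (log2 fold change 7.77, SE 0.92, edgeR adjusted p = 0.000617). Spz1, a bHLH-zip factor, had 110.4, 154 and 22.7 CPM in INSL3-KI and 0.464, 0.613 and 1.01 CPM in INSL3-KO (log2 fold change 7.10, SE 0.84, edgeR adjusted p = 0.000626), with a WT mean of 2262 CPM. Cpeb3, a regulator of cytoplasmic polyadenylation, had 19.9, 21.4 and 17.8 CPM in INSL3-KI and 20.3, 20.8 and 22.3 CPM in INSL3-KO (log2 fold change -0.10, or 1.37 when scaled on the Sertoli cell list, SE 0.15), did not pass, and lay far below the WT mean of 197 CPM in both.

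Spermatid genes showed the widest differences, and many had almost no reads in INSL3-KO. Acrosome and sperm-egg interaction genes had 29 of 30 tested genes higher and 0 lower in INSL3-KI (29 higher and 0 lower without INSL3-KI replicate 3). Their median log2 fold change was 7.07, or 6.95 with the 5 genes without any INSL3-KO read set at their lower bound. The list summed to 2719, 3271 and 1043 CPM in INSL3-KI and 45.46, 50.98 and 47.06 CPM in INSL3-KO, beside 8223 to 8337 CPM in WT. Acrv1, an acrosomal matrix protein, had 40.04, 67.4 and 9.68 CPM in INSL3-KI and 0.164, 0.636 and 0.124 CPM in INSL3-KO (log2 fold change 6.95, SE 0.98, edgeR adjusted p = 0.0012) and a WT mean of 408 CPM. Spaca3, a lysozyme-like acrosomal protein, had 19.6, 28.4 and 5.88 CPM in INSL3-KI and 0 counts in each INSL3-KO library (at least 238-fold higher in INSL3-KI, edgeR adjusted p = 0.00135). Izumo3, a relative of the egg-binding protein Izumo1, had 7.93, 13.3 and 1.97 CPM in INSL3-KI and 0 counts in each INSL3-KO library (at least 103-fold higher in INSL3-KI, edgeR adjusted p = 0.00271). Izumo3 had an edgeR adjusted p of up to 0.0132 without INSL3-KI replicate 1. For all 3 genes every INSL3-KI library lay above every INSL3-KO library and below the WT mean.

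Genes of the sperm nucleus came last in this order and had low levels in INSL3-KI as well. The protamine, transition protein and spermatid chromatin list had 14 of 15 tested genes higher and 0 lower in INSL3-KI (14 higher and 0 lower without INSL3-KI replicate 3), with a median log2 fold change of 6.70. It summed to 682, 967 and 91.52 CPM in INSL3-KI and 6.626, 4.924 and 5.440 CPM in INSL3-KO, beside 14210 to 16960 CPM in WT. Prm1, the first of the protamines that replace histones, had 47.3, 56.4 and 0.957 CPM in INSL3-KI and 0.736, 0.495 and 0.321 CPM in INSL3-KO (log2 fold change 6.08, SE 1.40, edgeR adjusted p = 0.00801), against a WT mean of 2876 CPM. Prm1 had an edgeR adjusted p of up to 0.0357 without INSL3-KI replicates 1 or 2 or INSL3-KO replicates 1, 2 or 3. Prm2 had 73.97, 96.5 and 1.07 CPM in INSL3-KI and 0.382, 0.730 and 0.544 CPM in INSL3-KO (log2 fold change 6.68, SE 1.51, edgeR adjusted p = 0.0076), against 3777 CPM in WT. Prm2 had an edgeR adjusted p of up to 0.0349 without INSL3-KI replicates 1 or 2 or INSL3-KO replicates 1, 2 or 3. Tnp1, a transition protein, had 15.2, 23.9 and 1.13 CPM in INSL3-KI and 0.191, 0.0942 and 0.0989 CPM in INSL3-KO (log2 fold change 6.70, SE 1.21, edgeR adjusted p = 0.00311), against 1149 CPM in WT. Tnp1 had an edgeR adjusted p of up to 0.0176 without INSL3-KI replicate 1 or INSL3-KO replicates 1, 2 or 3. INSL3-KI replicate 3 had the lowest INSL3-KI level for all 3 genes, and all INSL3-KI levels lay far below WT.

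The sperm tail lists moved in the same direction. Fibrous sheath and outer dense fibre genes had 25 of 26 tested genes higher and 0 lower in INSL3-KI, with a median log2 fold change of 7.27. Ropn1, an anchor of the fibrous sheath, had 44.2, 59.1 and 10.1 CPM in INSL3-KI and 0.273, 0 and 0.0495 CPM in INSL3-KO (log2 fold change 8.49, SE 1.11, edgeR adjusted p = 0.000899). Cylc2, of the perinuclear calyx, had 10.9, 26.1 and 2.76 CPM in INSL3-KI and 0 counts in each INSL3-KO library (at least 175-fold higher in INSL3-KI, edgeR adjusted p = 0.00347). Cylc2 had an edgeR adjusted p of up to 0.0148 without INSL3-KI replicate 1 or INSL3-KO replicates 1, 2 or 3. Axoneme and flagellum genes, which build the microtubule core of the tail, had 79 of 86 tested genes higher and 0 lower in INSL3-KI (81 higher and 0 lower without INSL3-KI replicate 3), with a median log2 fold change of 6.46. It summed to 19560, 21340 and 8429 CPM in INSL3-KI and 431, 405 and 410.4 CPM in INSL3-KO, beside 23280 to 24060 CPM in WT. Its largest differences among genes with at least 5 CPM were Gm7173, Dnah14 and Cfap46, whose implied lengths differed between the tables. Dnah14 had a mean of 239 CPM in INSL3-KI and 0.0769 CPM in INSL3-KO but 20.97 CPM in WT, which stands in the second table too. CatSper and sperm ion channel genes, which carry calcium into the tail, had 16 of 19 tested genes higher and 1 lower in INSL3-KI, with a median log2 fold change of 6.68 (6.51 with undetected genes at their bound). Catsper1, a pore subunit, had 14.7, 29.7 and 3.74 CPM in INSL3-KI and 0 counts in each INSL3-KO library (at least 212-fold higher in INSL3-KI, edgeR adjusted p = 0.00262). Catsper1 had an edgeR adjusted p of up to 0.0126 without INSL3-KI replicate 1. The 1 lower gene was the proton channel Hvcn1, named after its value was seen. Sperm-specific metabolic isozymes had 20 of 21 tested genes higher and 0 lower in INSL3-KI, with a median log2 fold change of 5.97. Aldoart2, a sperm aldolase, had 48.6, 84.5 and 10.1 CPM in INSL3-KI and 0.0545, 0.0236 and 0.297 CPM in INSL3-KO (log2 fold change 8.54, SE 1.14, edgeR adjusted p = 0.000964). ADAM proteases, many of which act on the sperm surface, had 19 of 30 tested genes higher and 1 lower in INSL3-KI, with a median log2 fold change of 6.56 (5.55 at the bound), and the lower one, also named after the fact, was Adam23.

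Promoters of the tail genes were searched because these genes moved together. The windows were RefSeq sequences of build GRCm38.p6 from 250 bases before to 50 after each start site, 5′ to 3′ on the gene's strand, and both strands were searched. The paired X-box, the inverted repeat bound by RFX factors, was in 5 of 80 axoneme promoters (6.25%) and in 0.444% of all 32851 promoters, and its shorter form GTTGCCA was in 15 (18.8%) and in 4.38%. The CREB element TGACGTCA was in 5 of 208 promoters of the 7 sperm structure lists (2.40%) and in 1.79% of all. These shares are descriptions and a match is not a binding site. The promoters of 2 axoneme genes with the paired X-box (Hydin, chr8:110266727-110267026, plus strand, and Cfap44, chr16:44394549-44394848, plus strand) and of 1 sperm-egg fusion gene with the CREB element (Izumo1, chr7:45621561-45621860, plus strand) are shown, with the motif in capitals.
Hydin: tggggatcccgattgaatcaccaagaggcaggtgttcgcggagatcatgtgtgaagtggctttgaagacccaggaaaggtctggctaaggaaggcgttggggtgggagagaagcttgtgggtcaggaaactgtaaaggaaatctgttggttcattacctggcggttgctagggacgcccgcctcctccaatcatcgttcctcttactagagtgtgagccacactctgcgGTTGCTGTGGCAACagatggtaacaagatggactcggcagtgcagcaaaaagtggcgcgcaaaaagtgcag
Cfap44: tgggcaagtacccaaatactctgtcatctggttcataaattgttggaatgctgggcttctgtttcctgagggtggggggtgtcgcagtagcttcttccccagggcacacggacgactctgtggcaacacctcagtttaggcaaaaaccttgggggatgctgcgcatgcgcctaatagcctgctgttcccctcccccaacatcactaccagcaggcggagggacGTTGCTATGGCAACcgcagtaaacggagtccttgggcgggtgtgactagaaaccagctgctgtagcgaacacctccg
Izumo1: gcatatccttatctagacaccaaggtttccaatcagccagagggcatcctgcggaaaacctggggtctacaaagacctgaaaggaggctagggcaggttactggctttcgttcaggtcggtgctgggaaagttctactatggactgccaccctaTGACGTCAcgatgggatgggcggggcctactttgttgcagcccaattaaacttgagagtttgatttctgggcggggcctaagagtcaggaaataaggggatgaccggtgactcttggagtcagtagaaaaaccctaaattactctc
These 3 genes were chosen for their promoters after their values were seen. Hydin, of the central pair of the axoneme, had 238, 268 and 102 CPM in INSL3-KI and 1.01, 1.01 and 0.989 CPM in INSL3-KO (log2 fold change 7.66, SE 0.46, edgeR adjusted p = 0.000156). Cfap44, a tail protein, had 83.5, 96.8 and 29.2 CPM in INSL3-KI and 1.15, 0.0942 and 0.940 CPM in INSL3-KO (log2 fold change 6.60, SE 0.85, edgeR adjusted p = 0.000871). Izumo1, which binds the egg receptor, had 16.9, 23.5 and 3.07 CPM in INSL3-KI and 0.273, 0.754 and 0.445 CPM in INSL3-KO (log2 fold change 4.87, SE 0.84, edgeR adjusted p = 0.00256). The INSL3-KI and INSL3-KO libraries did not overlap for any of them.

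By fold change, 6 genes led the calls toward INSL3-KI under a rule that left out predicted genes and those with a different implied length. All 6 had no read in any INSL3-KO library. They were Fam71e2 (chr7:4753226-4771302), Ccdc185, the clustered protocadherin Pcdha2, Adam6a, the CatSper subunit Catsper4 and Prr27. Fam71e2 had 32.8, 58.97 and 5.83 CPM in INSL3-KI and 0 counts in each INSL3-KO library (at least 430.4-fold higher in INSL3-KI, edgeR adjusted p = 0.00293). Fam71e2 had an edgeR adjusted p of up to 0.0137 without INSL3-KI replicate 1. Catsper4 had 23.7, 37.2 and 5.43 CPM in INSL3-KI and 0 counts in each INSL3-KO library (at least 293-fold higher in INSL3-KI, edgeR adjusted p = 0.00203). Catsper4 had an edgeR adjusted p of up to 0.0106 without INSL3-KI replicate 1. Pcdha2 had 32.3, 30.1 and 9.91 CPM in INSL3-KI and 0 counts in each INSL3-KO library (at least 319-fold higher in INSL3-KI, edgeR adjusted p = 0.00073), and since protocadherin alpha genes share exons its count is uncertain. Ccdc185 had an edgeR adjusted p of up to 0.0226 without INSL3-KI replicates 1 or 2 or INSL3-KO replicates 1, 2 or 3. Adam6a had an edgeR adjusted p of up to 0.0121 without INSL3-KI replicate 1. Prr27 had an edgeR adjusted p of up to 0.0113 without INSL3-KI replicate 1. The INSL3-KI means of these genes ran from 22.1 to 32.5 CPM and the WT means from 66.4 to 284 CPM, so each was above INSL3-KI in WT.

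**Figure D3:**
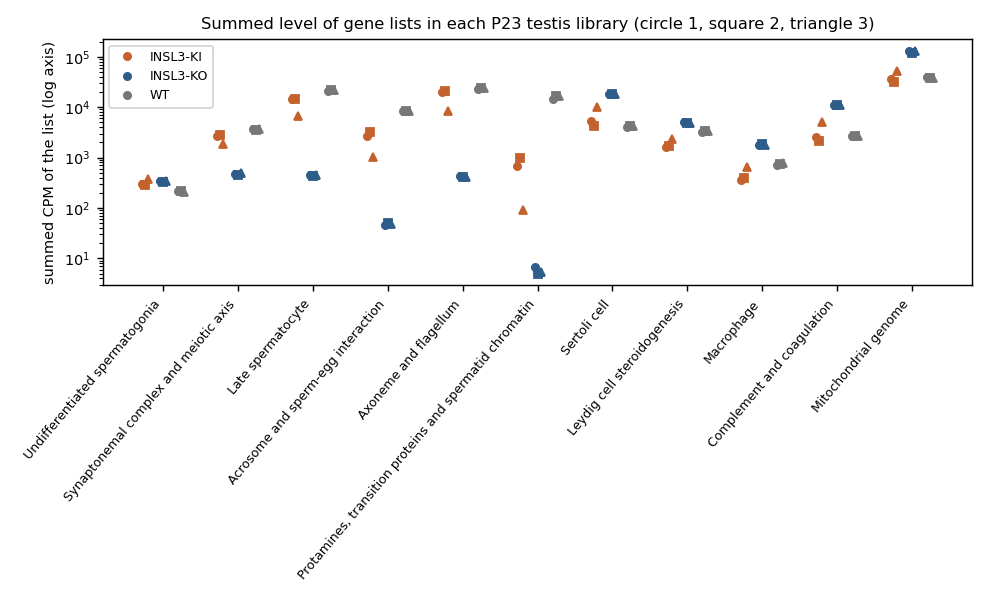
Summed level of 11 gene lists in each P23 testis library (y axis, CPM on a log axis), 1 point per library, for INSL3-KI, INSL3-KO and WT. INSL3-KI lies above INSL3-KO for the germ cell lists from the synaptonemal complex to the protamines and below it for the Sertoli, Leydig, macrophage, complement and mitochondrial lists.

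Somatic genes were higher in INSL3-KO on the TMM scale. Sertoli cell genes, those of the cells that nurse the germ cells, had 0 of 29 tested genes higher and 15 lower in INSL3-KI (0 higher and 25 lower without INSL3-KI replicate 3), with a median log2 fold change of -1.30 (-0.04 when scaled on themselves, with 2 higher and 2 lower). The list summed to 5297, 4180 and 10190 CPM in INSL3-KI and 18430, 18170 and 18340 CPM in INSL3-KO, beside 4068 to 4187 CPM in WT, with INSL3-KI replicate 3 between the groups. Trf, transferrin, had 41.1, 59.9 and 148 CPM in INSL3-KI and 469.5, 454 and 465 CPM in INSL3-KO (log2 fold change -2.48, or -1.28 when scaled on the Sertoli cell list, SE 0.46, edgeR adjusted p = 0.00347). Trf had an edgeR adjusted p of up to 0.0143 without INSL3-KI replicate 2 or INSL3-KO replicates 1, 2 or 3. Cst12, a cystatin, had 92.1, 63.4 and 180.0 CPM in INSL3-KI and 534, 545 and 509 CPM in INSL3-KO (log2 fold change -2.25, or -1.02 when scaled on the Sertoli cell list, SE 0.37, edgeR adjusted p = 0.00217). Cst12 had an edgeR adjusted p of up to 0.0137 without INSL3-KI replicate 1 or INSL3-KO replicates 1 or 2. Sox9, the factor that specifies Sertoli cells, had 68.9, 47.2 and 135 CPM in INSL3-KI and 225, 226 and 236 CPM in INSL3-KO and did not pass the test with all libraries, but passed without INSL3-KI replicate 3 (log2 fold change -1.98, edgeR adjusted p = 6.82e-06). Amh, the anti-Mullerian hormone of the immature Sertoli cell, had 35.6, 27.6 and 61.5 CPM in INSL3-KI and 53.7, 56.2 and 51.9 CPM in INSL3-KO and did not pass, and its WT mean was 4.52 CPM. Blood-testis barrier genes had 1 of 22 tested genes higher and 5 lower in INSL3-KI (4.55% and 22.7%, beside 25.2% and 13.0% of all genes). Their median was -0.51, or 0.81 when scaled on the Sertoli cell list. Cldn11, a tight junction protein of Sertoli cells, had 227, 170.3 and 426 CPM in INSL3-KI and 747, 775 and 764 CPM in INSL3-KO (log2 fold change -1.48, or -0.23 when scaled on the Sertoli cell list, SE 0.33, edgeR adjusted p = 0.00688). Cldn11 had an edgeR adjusted p of up to 0.0331 without INSL3-KI replicates 1 or 2 or INSL3-KO replicates 1, 2 or 3. The 1 higher gene was Nectin3 (log2 fold change 4.13), whose implied length differed.

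Leydig cell genes, those of the cells that make INSL3 and testosterone, had 2 of 30 tested genes higher and 17 lower in INSL3-KI (2 higher and 22 lower without INSL3-KI replicate 3), with a median log2 fold change of -1.40 (-0.05 when scaled on the Sertoli cell list, with 4 higher and 2 lower). It summed to 1649, 1679 and 2296 CPM in INSL3-KI and 4992, 4911 and 4926 CPM in INSL3-KO, beside 3288 to 3437 CPM in WT. Cyp11a1, which makes pregnenolone from cholesterol, had 113, 135 and 94.6 CPM in INSL3-KI and 474, 484 and 465 CPM in INSL3-KO (log2 fold change -2.05, or -0.56 when scaled on the Sertoli cell list, SE 0.17, edgeR adjusted p = 0.000185), with a WT mean of 253 CPM. Cyp17a1, the next step toward androgens, had 73.7, 86.9 and 65.7 CPM in INSL3-KI and 410.4, 406 and 389.8 CPM in INSL3-KO (log2 fold change -2.41, or -0.93 when scaled on the Sertoli cell list, SE 0.15, edgeR adjusted p = 0.000156), with 288 CPM in WT. Star, which carries cholesterol into mitochondria, had 25.8, 29.7 and 107 CPM in INSL3-KI and 317, 308 and 311 CPM in INSL3-KO (log2 fold change -2.52, or -1.41 when scaled on the Sertoli cell list, SE 0.56, edgeR adjusted p = 0.0068), and its implied length differed between the tables. Star had an edgeR adjusted p of up to 0.0231 without INSL3-KI replicates 1 or 2 or INSL3-KO replicates 1, 2 or 3. The 3 INSL3-KI libraries lay below every INSL3-KO library for each. Ptgds, the prostaglandin D synthase, had 6.26, 4.88 and 18.4 CPM in INSL3-KI and 154, 140.3 and 148 CPM in INSL3-KO (log2 fold change -3.90, or -2.76 when scaled on the Sertoli cell list, SE 0.52, edgeR adjusted p = 0.000963), with a WT mean of 145 CPM close to INSL3-KO. Insl3 itself was among the higher members. The NR5A1 element CAAGGTCA was in 0 of 25 promoters of the list and in 1.56% of all.

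Sterol synthesis genes had 3 of 24 tested genes higher and 9 lower in INSL3-KI, and their median was -0.78, or 0.67 when scaled on the Sertoli cell list. Msmo1, a sterol oxidase, had 38.7, 31.7 and 55.6 CPM in INSL3-KI and 232, 242 and 227 CPM in INSL3-KO (log2 fold change -2.48, or -1.15 when scaled on the Sertoli cell list, SE 0.22, edgeR adjusted p = 0.000238). Hormone receptor genes had 2 of 14 tested genes higher and 3 lower in INSL3-KI with a median of -0.83, or 0.48 when scaled on the Sertoli cell list. Lhcgr, the luteinizing hormone receptor of Leydig cells, had 14.8, 25.3 and 51.99 CPM in INSL3-KI and 124, 124 and 124 CPM in INSL3-KO (log2 fold change -2.02, or -0.78 when scaled on the Sertoli cell list, SE 0.42, edgeR adjusted p = 0.00557), with a different implied length. Lhcgr had an edgeR adjusted p of up to 0.021 without INSL3-KI replicate 2 or INSL3-KO replicates 1, 2 or 3. Peritubular myoid and smooth muscle genes, which contract the tubules, had 0 of 15 tested genes higher and 3 lower in INSL3-KI with a median of -0.53, or 0.83 when scaled on the Sertoli cell list. Acta2, smooth muscle actin, had 164, 157 and 257 CPM in INSL3-KI and 462, 469 and 439.6 CPM in INSL3-KO (log2 fold change -1.25, or 0.08 when scaled on the Sertoli cell list, SE 0.21, edgeR adjusted p = 0.00229). Acta2 had an edgeR adjusted p of up to 0.0131 without INSL3-KI replicate 1 or INSL3-KO replicates 1, 2 or 3. Endothelial genes had 0 of 15 tested genes higher and 2 lower in INSL3-KI with a median of -0.49, or 0.91 when scaled on the Sertoli cell list. Of all genes tested, 25.2% were called higher and 13.0% lower. The endothelial share called lower was 13.3%, near that of all genes. The share called lower was 37.5% for sterol synthesis and 21.4% for hormone receptors. For peritubular genes it rests on the 3 of 15 given above. The share called higher was below that of all genes in each of these lists. At least as many members of each of these lists did not pass the test as did, and with the Sertoli scaling all 4 medians were above 0.

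**Figure D4:**
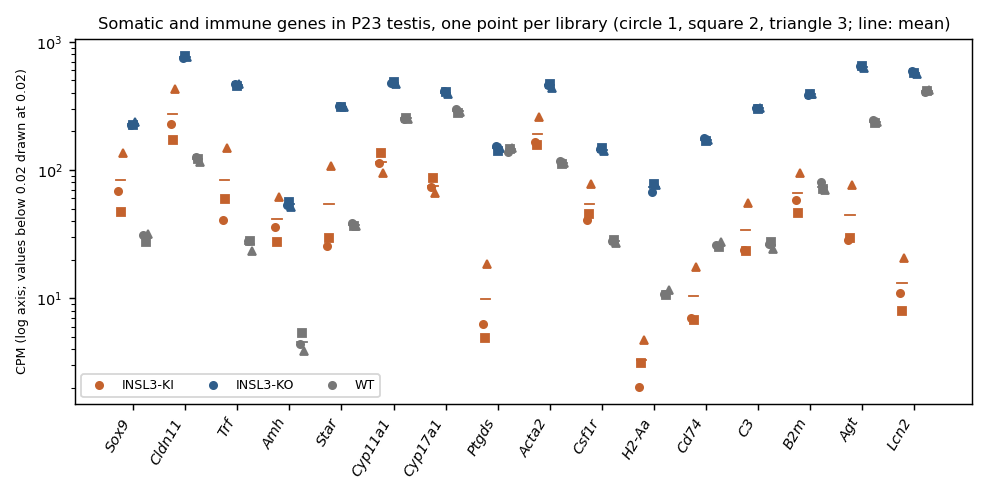
Level of somatic and immune genes in P23 testis (y axis, CPM on a log axis), 1 point per library and a line at each group mean, for INSL3-KI, INSL3-KO and WT. INSL3-KO libraries lie close together and above INSL3-KI for Cldn11, Star, Cyp11a1, H2-Aa, Cd74, C3, B2m and Agt, and WT is near INSL3-KO for Ptgds and Lcn2.

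Macrophage and antigen-presentation genes were the most often lower of the lists. The macrophage list had 0 of 22 tested genes higher and 19 lower in INSL3-KI (1 higher and 20 lower without INSL3-KI replicate 3), with a median log2 fold change of -1.78 (-0.45 when scaled on the Sertoli cell list). It summed to 364, 392 and 652 CPM in INSL3-KI and 1799, 1867 and 1815 CPM in INSL3-KO, beside 699.7 to 777 CPM in WT. H2-Aa, an MHC class II chain, had 2.03, 3.12 and 4.73 CPM in INSL3-KI and 67.5, 77.3 and 76.8 CPM in INSL3-KO (log2 fold change -4.49, or -3.17 when scaled on the Sertoli cell list, SE 0.32, edgeR adjusted p = 0.000156), with a WT mean of 10.98 CPM. H2-Eb1, another class II chain, had 1.70, 1.88 and 3.97 CPM in INSL3-KI and 50.2, 57.1 and 52.4 CPM in INSL3-KO (log2 fold change -4.40, or -3.15 when scaled on the Sertoli cell list, SE 0.36, edgeR adjusted p = 0.000186). Cd74, the class II invariant chain, had 6.98, 6.79 and 17.6 CPM in INSL3-KI and 178, 169 and 170.0 CPM in INSL3-KO (log2 fold change -4.05, or -2.83 when scaled on the Sertoli cell list, SE 0.41, edgeR adjusted p = 0.000364). These 3 genes were also called lower with the Sertoli scaling, under which the list as a whole had 1 higher and 4 lower of 22. Csf1r, the receptor that macrophages need to survive, had 40.5, 45.2 and 77.95 CPM in INSL3-KI and 145, 147 and 139 CPM in INSL3-KO (log2 fold change -1.40, or -0.09 when scaled on the Sertoli cell list, SE 0.25, edgeR adjusted p = 0.00303). Csf1r had an edgeR adjusted p of up to 0.0146 without INSL3-KI replicates 1 or 2 or INSL3-KO replicates 1, 2 or 3. Aif1 and Cx3cr1, named after their values were seen, were among the members that did not pass. Complement and coagulation genes had 2 of 37 tested genes higher and 22 lower in INSL3-KI (1 higher and 24 lower without INSL3-KI replicate 3), with a median log2 fold change of -1.49 (-0.15 when scaled on the Sertoli cell list, with 4 higher and 3 lower). C3, the central complement component, had 23.6, 23.4 and 55.6 CPM in INSL3-KI and 304, 297 and 304 CPM in INSL3-KO (log2 fold change -3.14, or -1.90 when scaled on the Sertoli cell list, SE 0.37, edgeR adjusted p = 0.000585), and Serping1, the C1 inhibitor, had 77.97, 70.4 and 147 CPM in INSL3-KI and 719, 696 and 686 CPM in INSL3-KO (log2 fold change -2.83, or -1.55 when scaled on the Sertoli cell list, SE 0.30, edgeR adjusted p = 0.000419). The higher ones were Cd46, a regulator that is also a sperm protein, and F10, both named after their values were seen.

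Signalling lists that immune cells share had smaller shifts. The interferon list had 0 of 29 tested genes higher and 12 lower in INSL3-KI, with a median of -1.08, or 0.28 when scaled on the Sertoli cell list. B2m, the light chain of MHC class I, had 58.1, 45.97 and 93.996 CPM in INSL3-KI and 387, 390.4 and 391 CPM in INSL3-KO (log2 fold change -2.56, or -1.27 when scaled on the Sertoli cell list, SE 0.27, edgeR adjusted p = 0.000413). TNF and NF-kappaB genes had 1 of 33 tested genes higher and 6 lower in INSL3-KI, with a median of -0.91, or 0.38 when scaled on the Sertoli cell list. Vcam1, a leukocyte adhesion protein, had 90.2, 77.1 and 156 CPM in INSL3-KI and 460.4, 470.4 and 474 CPM in INSL3-KO (log2 fold change -2.12, or -0.83 when scaled on the Sertoli cell list, SE 0.27, edgeR adjusted p = 0.000839), and its WT mean was 168 CPM. TGF-beta and BMP genes had 1 of 38 tested genes higher and 9 lower in INSL3-KI, with a median of -0.83, or 0.46 when scaled on the Sertoli cell list. Dcn, the proteoglycan decorin, had 170.2, 140.3 and 370.2 CPM in INSL3-KI and 1065, 1058 and 1086 CPM in INSL3-KO (log2 fold change -2.24, or -1.01 when scaled on the Sertoli cell list, SE 0.37, edgeR adjusted p = 0.00212). Dcn had an edgeR adjusted p of up to 0.0123 without INSL3-KI replicate 1 or INSL3-KO replicates 1, 2 or 3. Collagen and matrix genes had 3 of 25 tested genes higher and 2 lower in INSL3-KI and a median of 0.18, or -0.01 with library size as the only scaling. Of all genes tested, 25.2% were called higher and 13.0% lower. The shares called higher and lower were 0% and 41.4% for interferon, 3.03% and 18.2% for TNF, 2.63% and 23.7% for TGF-beta and 12.0% and 8.0% for collagens.

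Heat shock genes were called in both directions, at shares near those of all genes. The list had 11 of 39 tested genes higher and 5 lower in INSL3-KI, which is 28.2% and 12.8% beside 25.2% and 13.0% of all genes tested (11 higher and 5 lower without INSL3-KI replicate 3), with a median log2 fold change of 0.20 (-0.01 with library size as the only scaling). Hspb9, a testis small heat shock protein, had 269, 274 and 118 CPM in INSL3-KI and 0.818, 2.50 and 2.13 CPM in INSL3-KO (log2 fold change 6.92, SE 0.57, edgeR adjusted p = 0.000194), and Hsf5, a heat shock factor of spermatocytes, had 367, 385 and 184 CPM in INSL3-KI and 4.61, 5.56 and 3.78 CPM in INSL3-KO (log2 fold change 6.07, SE 0.38, edgeR adjusted p = 0.000156). The lower members were Hspb1, Hspb8, Hspd1, Hspe1 and Cryab, named after their values were seen. Hspb8, a small chaperone, had 2.81, 3.49 and 5.63 CPM in INSL3-KI and 29.9, 32.8 and 29.4 CPM in INSL3-KO (log2 fold change -2.95, or -1.64 when scaled on the Sertoli cell list, SE 0.28, edgeR adjusted p = 0.000313). Hspd1, the mitochondrial chaperonin, had 152, 118 and 214 CPM in INSL3-KI and 364, 348 and 383 CPM in INSL3-KO (log2 fold change -1.18, or 0.15 when scaled on the Sertoli cell list, SE 0.22, edgeR adjusted p = 0.00353), and its partner Hspe1 had 34.4, 27.99 and 40.2 CPM in INSL3-KI and 139, 141 and 130.1 CPM in INSL3-KO (log2 fold change -1.996, or -0.63 when scaled on the Sertoli cell list, SE 0.16, edgeR adjusted p = 0.00018). The stress-inducible Hspa1b had 23.7, 17.4 and 30.6 CPM in INSL3-KI and 30.8, 26.3 and 27.9 CPM in INSL3-KO (log2 fold change -0.24) and did not pass. With the Sertoli scaling it was called higher in INSL3-KI (log2 fold change 1.09, edgeR adjusted p = 0.00484), as were 47.5% of all genes. Both groups lay above its WT mean of 6.77 CPM. Hsp90ab1, the constitutive cytosolic chaperone, had 1004, 847 and 1252 CPM in INSL3-KI and 1213, 1154 and 1169 CPM in INSL3-KO (log2 fold change -0.19) and did not pass. It too was called higher with the Sertoli scaling (log2 fold change 1.17, edgeR adjusted p = 0.00891).

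The core heat shock element GAANNTTC was in 12 of 38 promoters of the heat shock list (31.6%) and in 7.86% of all promoters. The promoter of Hspa1b (chr17:34959189-34959488, minus strand), the inducible gene named by the study, is shown with the element in capitals.
Hspa1b: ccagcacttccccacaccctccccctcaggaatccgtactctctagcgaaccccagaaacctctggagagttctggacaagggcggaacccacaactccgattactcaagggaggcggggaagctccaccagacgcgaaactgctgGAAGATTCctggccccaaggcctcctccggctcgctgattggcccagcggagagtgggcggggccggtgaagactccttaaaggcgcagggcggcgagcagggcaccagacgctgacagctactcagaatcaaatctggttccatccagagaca
A gene list of the BCL2 family and p53 targets had 6 of 31 tested genes higher and 8 lower in INSL3-KI (19.4% and 25.8%, beside 25.2% and 13.0% of all genes). Its median was -0.69, or 0.65 when scaled on the Sertoli cell list. Its log2 fold changes ran from -2.30, that of Fas, to 10.85. Fas, a death receptor, had 1.33, 0.970 and 1.60 CPM in INSL3-KI and 6.93, 6.36 and 5.98 CPM in INSL3-KO (log2 fold change -2.30, or -0.96 when scaled on the Sertoli cell list, SE 0.28, edgeR adjusted p = 0.000649). The mitochondrial genome had 0 of 13 tested genes higher and 10 lower in INSL3-KI (0 higher and 11 lower without INSL3-KI replicate 3), with a median of -1.60, or -0.25 when scaled on the Sertoli cell list, where 0 higher and 1 lower were called. mt-Nd2, a complex I subunit, had 1653, 1362 and 2785 CPM in INSL3-KI and 11281, 10249 and 11800 CPM in INSL3-KO (log2 fold change -2.52, or -1.23 when scaled on the Sertoli cell list, SE 0.29, edgeR adjusted p = 0.000544), with a WT mean of 2122 CPM.

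Under the same rule, the 6 genes that led the calls toward INSL3-KO were H2-Aa, H2-Eb1, Cd74, Ptgds, Agt and Fdx1l. Agt (chr8:124556534-124569706), the precursor of angiotensins, had 28.5, 29.2 and 76.5 CPM in INSL3-KI and 653, 643 and 621 CPM in INSL3-KO (log2 fold change -3.84, or -2.63 when scaled on the Sertoli cell list, SE 0.43, edgeR adjusted p = 0.0005), with a WT mean of 237 CPM. Fdx1l, a ferredoxin, had 0.584, 0.697 and 1.01 CPM in INSL3-KI and 14.02, 15.9 and 13.6 CPM in INSL3-KO (log2 fold change -4.24, or -2.91 when scaled on the Sertoli cell list, SE 0.28, edgeR adjusted p = 0.000156). At P8 its log2 fold change between the INSL3-KI libraries and those labelled INSL3-KO was -3.36 (edgeR adjusted p = 0.00548), and its WT mean at P23 was 12.5 CPM. For Fdx1l and Ptgds, WT lay near INSL3-KO. Both groups stand in the second table, so table and genotype cannot be told apart for these genes.

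Genes of the INSL3 pathway beyond ligand and receptor, from the G protein to cAMP targets, had 6 of 31 tested genes higher and 4 lower in INSL3-KI (19.4% and 12.9%, beside 25.2% and 13.0% of all genes), with a median log2 fold change of 0.02 (-0.18 with library size as the only scaling). Adcy10, the soluble adenylyl cyclase of sperm, had 171, 217 and 62.6 CPM in INSL3-KI and 1.28, 2.43 and 1.43 CPM in INSL3-KO (log2 fold change 6.45, SE 0.59, edgeR adjusted p = 0.000265). Crem, the spermatid regulator that binds CREB elements, had 140.4, 159.6 and 68.9 CPM in INSL3-KI and 17.3, 15.6 and 16.3 CPM in INSL3-KO (log2 fold change 2.91, SE 0.32, edgeR adjusted p = 0.00049). Pde4a, a cAMP phosphodiesterase, was called higher as well, with a log2 fold change of 2.71 and a different implied length. Its call was also lost with library size as the only scaling. Pde4a had an edgeR adjusted p of up to 0.0313 without INSL3-KI replicates 1 or 2 or INSL3-KO replicates 1, 2 or 3. Of 7 neighbours of the Insl3 locus, 3 were higher and 0 lower in INSL3-KI. Jak3, a member of this neighbour list, had 11.4, 14.9 and 9.77 CPM in INSL3-KI and 4.74, 5.32 and 5.91 CPM in INSL3-KO (log2 fold change 1.18, SE 0.23, edgeR adjusted p = 0.00453), with a WT mean of 22.96 CPM. Jak3 had an edgeR adjusted p of up to 0.0244 without INSL3-KI replicates 1 or 2 or INSL3-KO replicates 1, 2 or 3. Slc5a5 had 5.28, 5.79 and 4.48 CPM in INSL3-KI and 0.218, 0.990 and 0.470 CPM in INSL3-KO (log2 fold change 3.20, SE 0.53, edgeR adjusted p = 0.0023), and Ccdc124 had a log2 fold change of 1.49 with a different implied length. Slc5a5 had an edgeR adjusted p of up to 0.0143 without INSL3-KI replicate 1 or INSL3-KO replicate 3.

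Whether the difference arose after P8 was asked by comparing ages within each table, as the change from P8 to P23 in INSL3-KI minus that in INSL3-KO, so that only a shift between tables that is equal at both ages on the log2 scale cancels. It rests on libraries labelled P8 INSL3-KO that go against their label: they had 906, 804 and 613 Insl3 counts, against 33, 15 and 26 in P8 INSL3-KI. In addition, P8 INSL3-KI replicate 2 had far more germ cell transcripts than the other two (Piwil1 8.02, 343 and 6.28 CPM). At P8 434 genes (2.76%) were called higher and 183 (1.16%) lower in INSL3-KI, of 15728. Of 17052 genes, 1997 (11.7%) were called higher and 1328 (7.79%) lower for the age difference. With library size as the only scaling the split was 1740 higher and 585 lower. Without P23 INSL3-KI replicate 3 it was 2974 and 2817, without P8 INSL3-KI replicate 2 it was 2713 and 1583, and without any 1 of the other 10 libraries it was 904 to 1248 higher and 412 to 729 lower. Synaptonemal genes summed to 1414, 2248 and 1154 CPM in P8 INSL3-KI and 1433 to 1450 CPM in the libraries labelled P8 INSL3-KO, and 10 of 15 were called higher for the age difference. For the Sertoli list 11 of 29 were called lower and 0 higher, and for the macrophage list 16 of 22 lower and 0 higher. Libraries labelled P8 INSL3-KO had Sertoli sums of 9627 to 9788 CPM against 7461 to 8442 CPM in P8 INSL3-KI.

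**Figure D5:**
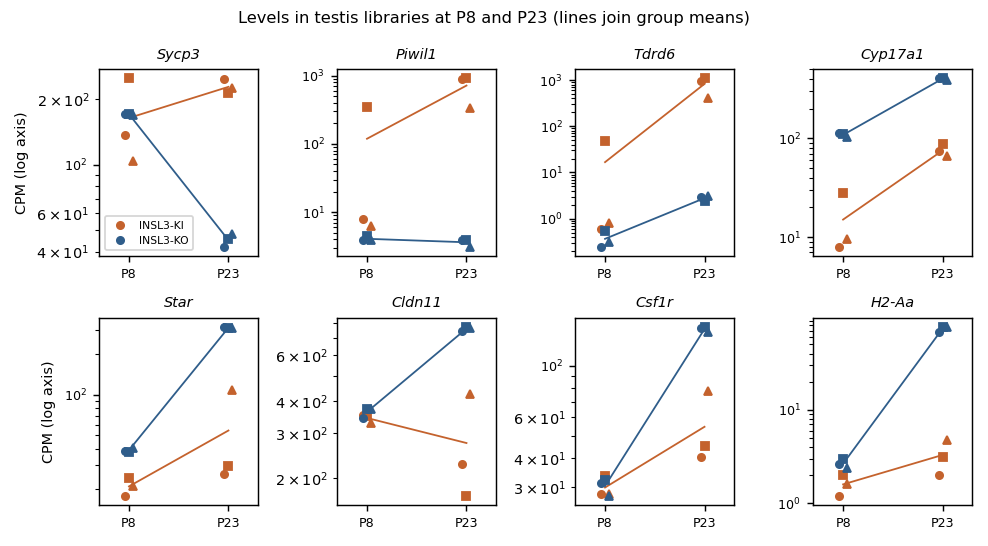
Level of 8 genes at P8 and P23 (y axes, CPM on log axes) in INSL3-KI and in libraries labelled INSL3-KO, 1 point per library, lines joining group means. For Sycp3, Piwil1 and Tdrd6 INSL3-KO lies far below INSL3-KI at P23 while the groups overlap or lie closer at P8.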

How the data were processed

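Total RNA of whole testis was extracted with TRIzol, made into mRNA libraries with a Hieff NGS kit and read from both ends on an Illumina NovaSeq. The authors deposited raw read counts per gene. They also deposited FPKM values, which are counts scaled by transcript length and library size. Mapping was done with HISAT2, and the submitters' processing notes name GRCm38 as the build. The annotation release and the counting program are not given in the sources used here. The 2 count tables were joined on the Ensembl identifier, which left 21561 shared genes. A transcript length implied by counts and FPKM was compared for 17529 genes and was the same for 13632 within 0.1 on the log2 scale. No column was left unmapped.

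Counts were tested with edgeR 4.0.16 (quasi-likelihood test, TMM, filterByExpr at 10 counts per library and 15 in total) in R 4.3.3, and p-values were adjusted by Benjamini-Hochberg over the whole table. Calls needed an adjusted p-value below 0.01 and a difference by a factor of 2 or more. The 6 P23 libraries entered the main comparison, and 12 libraries entered the test of the age difference. The labels call the replicates biological, and whether each is a single animal is not stated, so p-values measure the spread between these samples. Printed CPM use TMM factors over 15 libraries. A fold against INSL3-KO libraries without a read is a lower bound at a floor of 3 counts per library, and with 1 to 3 counts in all a ratio with a 95% Poisson interval is given. Floors and intervals cover counting error only.

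The members and lists were chosen with earlier results of these data known. The 40 lists were written by hand, and 916 of 930 symbols were matched. Genes were named by these rules: Insl3, Rxfp2, Rec8, Cpeb3, Hspa1b and Hsp90ab1; the 6 largest fold changes in each direction among called genes with no overlap of the groups, at least 10 CPM in the higher group, no predicted-gene symbol, the same implied length and no 2-fold separation of the tables; the 3 largest of each list with at least 5 CPM; testis markers; and 4 genes in each direction for the age difference by the same criteria. Not every gene so named is described, and some results are not reported here.

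Alternatives were DESeq2 1.42.0, no filter, library size as the only scaling, limma 3.58.1 on log2(FPKM + 1) and log2(FPKM + 0.1), genes of the same implied length, the replicate number as a block, all testis groups or all P23 testis groups in 1 fit, a 4-fold threshold, and each library left out. Scaling on the Sertoli cell list, removal of the trends of each library with gene GC content and length, and removal of 16 genes that separate the tables were chosen after seeing the data. The scripts were tested on simulated counts. Promoters and coding sequences were searched and aligned with Python 3.11.15 and Biopython 1.88.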

Additional observations from a re-analysis of the deposited data

Results flagged for a closer look

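These results are listed because the difference between INSL3-KI and INSL3-KO was not the same at P8 and P23 by a test of that difference itself. In all, 1997 genes were called higher and 1328 lower for the change from P8 to P23 in INSL3-KI minus that in INSL3-KO. The libraries labelled P8 INSL3-KO had more Insl3 reads than P8 INSL3-KI, which goes against their label, and every value here rests on them. On the log2 scale the age difference was 10.26 (SE 0.88, edgeR adjusted p = 0.000562) for Insl3 and 6.05 (SE 1.47, edgeR adjusted p = 0.00821) for Rxfp2, whose implied length differs between the tables. At P8 Rxfp2 had 3, 19 and 0 counts in INSL3-KI and 9, 31 and 25 in the libraries labelled INSL3-KO, so its fitted size rests on few reads.

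Among genes named by the rule, the testis-expressed genes Tex36 at 16.79 (SE 3.54, edgeR adjusted p = 0.00987), Tmco2 at 14.40 (SE 2.57, edgeR adjusted p = 0.00371), Efcab3 at 12.16 (SE 1.41, edgeR adjusted p = 0.0014) and Spata3 at 11.56 (SE 2.64, edgeR adjusted p = 0.00856) were higher for the age difference. At P23 Efcab3 had 13.01, 25.5 and 3.66 CPM in INSL3-KI and 1.25, 1.65 and 1.61 CPM in INSL3-KO, and Spata3 had 26.9, 34.8 and 2.56 CPM and 0.164, 0.141 and 0.148 CPM. At P8 Efcab3 had 0, 0 and 0 counts in INSL3-KI and 59, 81 and 68 in the libraries labelled INSL3-KO, and Spata3 had 0, 0 and 0 and 7, 0 and 2. For Efcab3 the log2 difference between genotypes was 3.23 at P23 and -9.08 at P8, so the larger part of its age difference lay at P8. Tex36 and Tmco2 had no read in any P23 INSL3-KO library, and at P8 INSL3-KI had 0, 0 and 0 and 2, 0 and 0 counts. With such zeros the fitted sizes of all 4 genes depend on the prior count and are no bounds. The kallikrein Klk1b27 at -9.12 (SE 1.52, edgeR adjusted p = 0.00304), the water channel Aqp8 at -5.04 (SE 1.20, edgeR adjusted p = 0.00761), the serpin Serpina3n at -4.92 (SE 0.75, edgeR adjusted p = 0.0018) and the kallikrein Klk1b21 at -4.75 (SE 1.20, edgeR adjusted p = 0.00953) were lower. Klk1b27 had no read in the libraries labelled P8 INSL3-KO, so the same holds for its size. Of these 8 genes, 6 lost their call in at least 1 fit without a library: Tex36, Tmco2, Spata3, Klk1b27, Aqp8 and Klk1b21.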

How the results depend on the processing

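The count of higher calls stayed within 1.5 times of 4131, and that of lower calls within 1.5 times of 2131, with DESeq2 (4786 and 2591), no filter (4137 and 2052), library size (3659 and 2290), limma (3049 and 2394, or 3397 and 2794 with a pseudocount of 0.1) and the other choices run, except as follows. Scaled on the Sertoli cell list the counts were 7782 and 135, and at a 4-fold threshold 380 genes were lower. Without 1 library, 2923 to 4902 genes were higher and 723 to 3599 lower. The lower count was 723 without INSL3-KI replicate 1, 1278 without replicate 2, 3599 without replicate 3, and 735, 762 and 771 without INSL3-KO replicates 1, 2 and 3. For the age difference the ranges were 904 to 2974 higher and 412 to 2817 lower, both highest without P23 INSL3-KI replicate 3, and 585 were lower with library size alone. Deviations of same-numbered libraries from their group means had correlations of 0.016, -0.0091 and -0.0063. With 3 libraries per group and INSL3-KI replicate 3 apart, these values cannot tell whether same-numbered libraries shared handling. With the replicate block 3796 genes were higher and 1999 lower (1934 and 1294 for the age difference).

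Directions of list medians turned under the Sertoli scaling for undifferentiated spermatogonia (1.03), differentiating spermatogonia (1.36), blood-testis barrier (0.81), sterol synthesis (0.67), hormone receptors (0.48), peritubular cells (0.83), endothelium (0.91), TNF (0.38), interferon (0.28), TGF-beta (0.46) and BCL2 (0.65), and among lists for other tissues for hepatocytes (0.76), kidney and adrenal (0.99) and adipocytes (1.55). With library size alone they turned for the INSL3 pathway (-0.18), heat shock (-0.012), collagens (-0.013), skeletal muscle (-0.11) and erythroid cells (-0.027), and, among testis and pathway lists, with GC and length trends removed for the INSL3 pathway (-0.11) and collagens (-0.38). Genes of the same implied length gave 0.042 for differentiating spermatogonia. Leave-one-out medians ran from -0.11 to 0.035 for the INSL3 pathway, from -0.20 to 0.12 for differentiating spermatogonia, from -1.09 to 0.27 for adipocytes, from -0.26 to 0.23 for skeletal muscle and from -0.14 to 0.37 for erythroid cells. Hspa1b and Hsp90ab1, not called with TMM, were called higher with the Sertoli scaling. Among genes not called, Rec8 turned with library size (-0.20) and limma (-0.18) and ran from -0.060 to 0.060 with 1 library left out, Cpeb3 turned with limma (0.095), and Gfra1 turned with DESeq2 (0.052) and ran from -0.16 to 0.17. The causes were not tested.

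Of 118 named genes called, 118 kept their call with DESeq2, 113 with library size (not Pde4a, Jak3, Ocln, Igf1r and Robo4), 107 with limma (not Ccdc185, Ccdc124, Jak3, Id4, Adam26a, Igf1r, Mylk, Emcn, Col14a1, Prm1 and Prm2), 115 with the block (not Jak3, Emcn and Prm2) and 74 without each library in turn. Lin28a, Sox9 and Wt1 passed only without INSL3-KI replicate 3. With 3 libraries per group and the spread of INSL3-KI larger (biological coefficient of variation 0.377 against 0.118 in INSL3-KO), smaller differences were not detectable.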

Other observations

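The genes Lcn2, Klk1b21, Klk1b27, Sult1e1 and Hsd17b3 had lower mean levels in INSL3-KI than in both INSL3-KO and WT at P23. They were picked after their values were seen, and INSL3-KO and WT stand in the second table while INSL3-KI stands in the first, so table and genotype cannot be told apart. Lcn2, a lipocalin, had group means of 13.2 CPM in INSL3-KI, 574 CPM in INSL3-KO and 416 CPM in WT, and its implied length differs between the tables. Klk1b21, a kallikrein, had means of 6.62 CPM in INSL3-KI, 64.8 CPM in INSL3-KO and 88.3 CPM in WT, and Klk1b27 had 1.97 CPM in INSL3-KI, 26.2 CPM in INSL3-KO and 47.2 CPM in WT. Sult1e1, the oestrogen sulfotransferase, had 0.287 CPM in INSL3-KI, 5.01 CPM in INSL3-KO and 21.4 CPM in WT, and Hsd17b3, which makes testosterone, had 1.94 CPM in INSL3-KI, 17.8 CPM in INSL3-KO and 32.1 CPM in WT with a different implied length.

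Some genes had similar means in both mutants and another level in WT. Amh had 41.6 CPM in INSL3-KI, 53.9 CPM in INSL3-KO and 4.52 CPM in WT, Hspa1b had 23.9 CPM in INSL3-KI, 28.3 CPM in INSL3-KO and 6.77 CPM in WT, and Cpeb3 had 19.7 CPM in INSL3-KI, 21.1 CPM in INSL3-KO and 197 CPM in WT. Each was compared by its values alone.

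Lists for other tissues held 6 to 11 tested genes each and are set beside 25.2% higher and 13.0% lower of all genes. Their counts were 0 higher and 2 lower of 10 for hepatocytes, 1 higher and 2 lower of 6 for kidney tubule and adrenal cortex, 0 higher and 1 lower of 11 for adipocytes, 1 higher and 1 lower of 8 for skeletal muscle, 0 higher and 1 lower of 6 for erythroid cells, 1 higher and 1 lower of 10 for lymphocytes, neutrophils and mast cells, and 1 higher and 3 lower of 7 for the epididymis. The shares called lower were above that of all genes for the epididymis (42.9%), kidney and adrenal (33.3%) and erythroid cells (16.7%), and for hepatocytes with the 2 of 10 given above. Each of these shares rests on 1 to 3 genes, and the erythroid median was above 0, at 0.15. The lymphocyte, neutrophil and mast cell list had the lowest median of all lists, at -1.88, with the 2 calls given above. Its level was low, with 10 of 18 genes tested. It summed to 4.45 to 7.70 CPM in INSL3-KI and 8.25 to 9.30 CPM in INSL3-KO. Cyp21a1, an adrenal steroid hydroxylase, had 0.334, 0.243 and 0.732 CPM in INSL3-KI and 6.82, 6.15 and 6.63 CPM in INSL3-KO (log2 fold change -3.89, or -2.68 when scaled on the Sertoli cell list, SE 0.44, edgeR adjusted p = 0.000517).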
